A study of Arabidopsis thaliana with 14 samples.

Results

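In Arabidopsis thaliana rosettes kept in the dark past dawn, 27 of 22746 probe sets of the Affymetrix ATH1 array had a higher signal in the subjective day and were back at their end of night signal after 24 h. They were chosen on log2 signal after robust multi-array average (RMA) processing, the scale of every level below. Both 8 h arrays had to lie above all 3 end of night arrays, the 8 h mean had to exceed the end of night mean by 1 or more, and the 24 h mean had to lie within -0.3 to 0.3 of it. Because those values chose the members, the members' differences from the end of the night, at any time, are given as a description, with no test. The array annotation gave 12 of the 27 members exactly 1 gene, 1 member several genes and 14 members none, and these last 15 appear by probe set.

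The plants were wild type Columbia-0, 5 to 6 weeks old, grown last in a 14 h photoperiod, and no other genotype or treatment was used. Each of the 14 arrays held RNA from 3 pooled whole rosettes, and the groups differed in time. There was 1 array from the last hours of the night (-2 h), 3 from its end (0 h; A, B and C), 1 at 2 h into the extended night, 2 at 4 h (A and B), 1 at 6 h, 2 at 8 h (A and B), 2 at 24 h (B and C) and 2 at 48 h (B and C). Nothing in the labels says that replicate samples were grown separately, so p-values measure only the spread between these samples, which may be technical. In whole rosettes, fewer cells of a type and less RNA per cell cannot be told apart.

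A leaf in an extended night has used up most of the starch it stored by day, and transcripts of catabolism and stress are known to climb as sugar runs out. The circadian clock keeps running for some time without light, so many plant transcripts still cycle between subjective day and subjective night. The 2 h to 8 h samples belong to the subjective day, and those of 24 h and 48 h to subjective dawn. Clock phase and length of darkness both differed between 8 h and 24 h and cannot be told apart. The 12 members with 1 gene were compared with 9 gene lists, and none belonged to them. The lists were for the clock, photoperiod, light signalling, starch breakdown, sugar starvation, cold, gibberellin and auxin, heat shock and phenylpropanoids. Members without a single gene could not be checked. Of their 142 genes 19 were measured, none of them from the last 2 lists. Here and below, a gene counts as measured if the annotation gave it a probe set with exactly 1 gene. The annotation gave 8730 probe sets no gene, so a gene not counted as measured may still be on the array.

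Array medians ran from 6.62 to 6.77 after normalization. Replicate arrays correlated across probe sets at 0.988 to 0.993, apart from the 48 h pair at 0.975. On 48 h array B the 25S rRNA control read 8.98, against 11.05 to 13.78 elsewhere, and calls of members that were lost without this array are named with the value left. Of the leaf markers, 2 of 9 were measured, RCA (Rubisco activase; 9.85 to 14.03) and PSBY (a photosystem II protein; 12.22 to 13.29), and neither fell below percentile 90.3 of any array. The 1 measured root marker of 5, PYK10, had 7.65 to 9.47, and no flower marker was measured.

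Return by 24 h was rare among probe sets that were up at 8 h. Of 1238 probe sets that met both 8 h conditions, 27 (2.18%) lay within the 24 h window, 1206 (97.4%) lay above it and 5 (0.404%) below it. The 24 h difference over these 1238 had a median of 1.47, with quartiles of 1.09 and 2.06. Another 7 probe sets met the 8 h size and the 24 h window but had overlapping arrays. In the opposite direction, 37 of 1528 probe sets that were down by 1 or more at 8 h (2.42%) were back within the window at 24 h. The 24 h window lies in the lower tail of the 1238 differences, as the histogram of them shows.

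**Figure D1:**
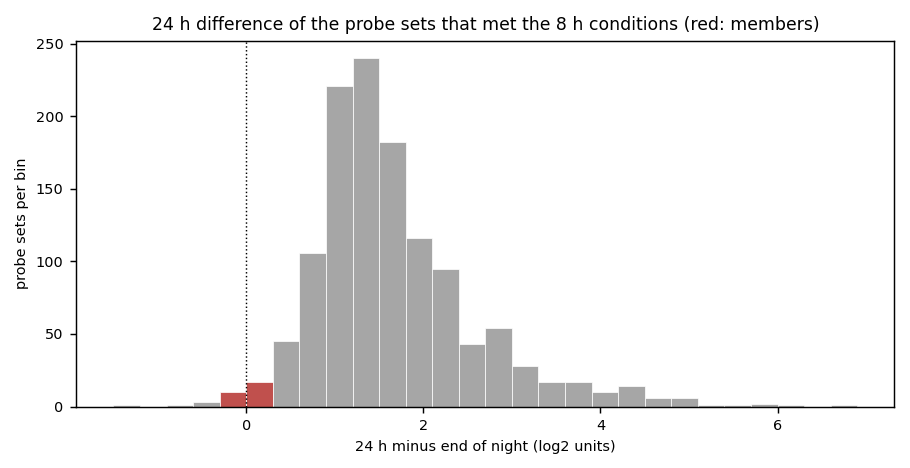
Histogram of the mean at 24 h minus the mean at the end of the night (x axis, log2 units, bins of 0.3) for the 1238 probe sets that met both 8 h conditions (y axis, probe sets per bin). The red bins are the 27 members; 1206 probe sets lie to their right and 5 to their left.

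The members lay near the thresholds in several cases. Just inside the 8 h threshold were AT4G26540 (1.013), 247822_at (1.026) and 261212_at (1.072), and just outside it 247949_at (0.995), 250665_at (0.989) and AT3G55020 (0.981). At the upper end of the 24 h window, 265143_at (0.297), AT4G26540 (0.277) and 259426_at (0.275) were inside, and 254066_at (0.316), 266616_at (0.357) and 260274_at (0.361) outside. At the lower end, 248197_at (-0.295), 245638_s_at (-0.208) and 245448_at (-0.139) were inside, and AT2G23840 (-0.396), AT5G62360 (-0.399) and 245456_at (-0.466) outside. Applying the rule with 1 array left out gave 23 to 38 members, except without 8 h array B, where it gave 71. Of the 27 members, 7 met the rule whichever array was left out: PORB, CYP71B26, AT1G52200, AT1G73750, 245448_at, 247323_at and 260546_at.

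As a group the members had 8 h differences of 1.01 to 2.38 with a median of 1.27, and 24 h differences of -0.29 to 0.30 with a median of 0.02. Their highest mean of all 8 time points was at 8 h in 17 members, at 6 h in 7, at 4 h in 2 and at 2 h in 1. The single 6 h array lay above all 3 end of night arrays for 25 of 27 members, where 32.5% of all probe sets did so. The single 2 h array did so for 14 of 27, where 23.4% of all probe sets did. At 4 h the difference from the end of the night was 0.5 or more of the 8 h difference in 16 members and less in 11. At 48 h, again at the clock time of dawn, 12 members lay within 0.3 of the end of night mean, 10 lay above it (3 by over 1) and 5 below it (3 by over 1).

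**Figure D2:**
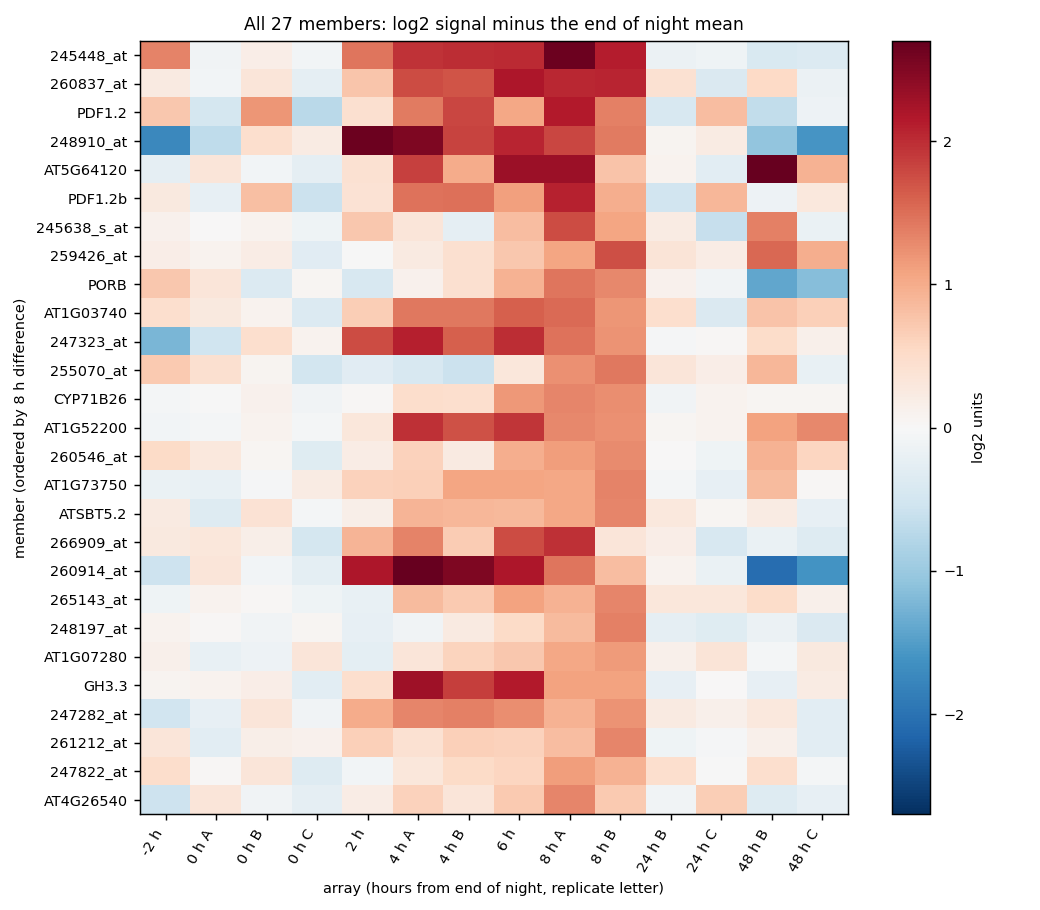
Heat map of the 27 members (rows, ordered by their 8 h difference) on the 14 arrays (columns, by hours from the end of the night and replicate letter). Colour gives log2 signal minus the end of night mean (blue below, red above). In most rows red runs from 2 h or later to 8 h, and 245448_at is also red at -2 h. Most cells of the 24 h columns are pale, but single arrays are further off, such as array C for PDF1.2b (9.36 against a mean of 8.45). The 48 h columns hold both red and blue cells.

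The tests below used limma with Benjamini-Hochberg adjustment over all 22746 probe sets, and a value passed at an adjusted p under 0.05. The first test that used no array of the rule followed the 5 arrays from -2 h to 6 h. A slope over hours was positive and passed the test in 14 of 27 members (10.3% of all probe sets passed with a positive slope) and negative in 0 of 27 (13.0%). At an unadjusted p under 0.05 the counts were 17 and 0, and over all 22746 probe sets 3574 and 4466. The median slope was 0.151 log2 units per hour over the members and -0.004 over all probe sets. Without the -2 h array 5 members' slopes passed and without 4 h array A 9 did, with 0 negative in both cases. Over all probe sets, 1329 slopes of either sign passed without the -2 h array and 3323 without 4 h array A, against 5309 with all 5 arrays.

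The second comparison set 48 h against 4 h (n = 2 arrays each), times that the rule did not use, although the fit took its spread from all 14 arrays. Of 27 members, 12 were lower at 48 h and passed (13.0% of all probe sets), and 1 was higher and passed (13.0%). From the 7 arrays that the rule did not use alone, 14 members were lower and 0 higher, with 3849 of 22746 probe sets called in either direction, against 5904 from all 14. At an unadjusted p under 0.05 the 14 arrays gave 18 lower and 2 higher, and over all probe sets 3955 and 4215. The median difference was -0.72 over the members and 0.03 over all probe sets. Both 48 h arrays lay below both 4 h arrays for 20 members (26.8% of all probe sets) and above them for 2 (32.6%). Leaving out any 1 of the 4 h or 48 h arrays left 1 array at that time, and fewer probe sets were called over the whole array. The counts of members called in those fits are not read. Both this test and the slope use the 4 h arrays, so they are not independent of each other.

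**Figure D3:**
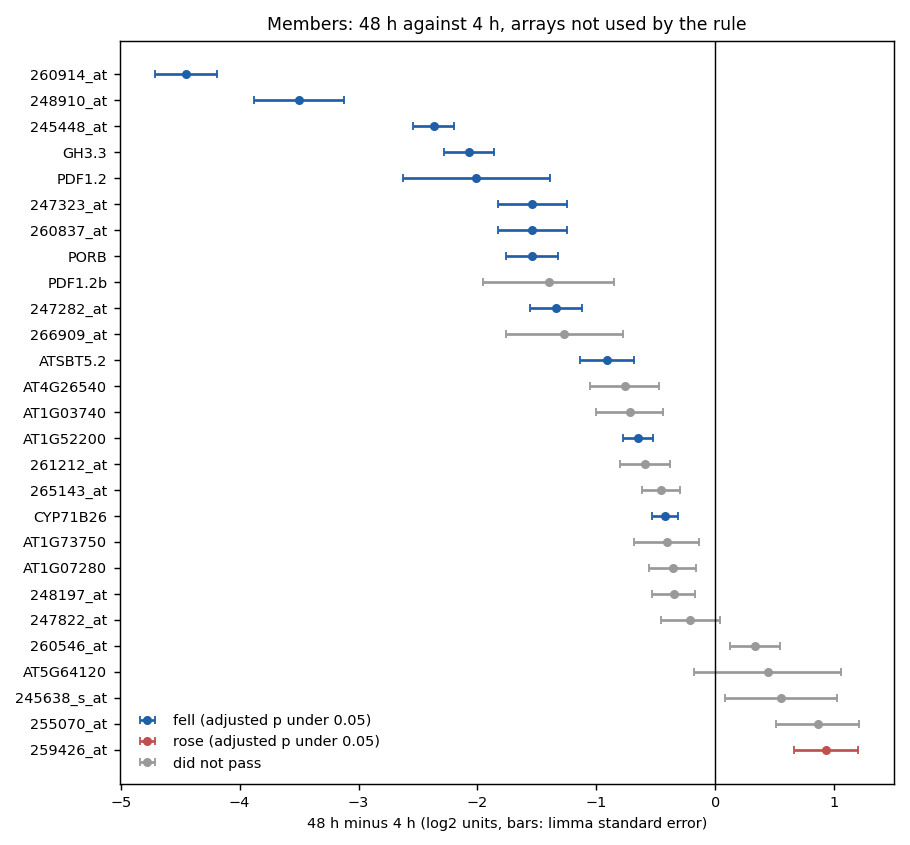
Difference between 48 h and 4 h for each of the 27 members (y axis, ordered by the difference), in log2 units (x axis), with bars of 1 limma standard error. Blue points passed the test as lower at 48 h (12 members), the red point as higher (259426_at), and grey points did not pass; 22 of the 27 estimates are below 0.

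The same differences were counted in the 1206 probe sets that met the 8 h conditions and lay above the 24 h window. Of the 27 members 1 was higher at 48 h than at 4 h and 12 lower (median difference -0.72), and of those 1206 probe sets 658 (54.6%) were higher and 47 (3.90%) lower (median difference 0.74). The median difference at 4 h from the end of the night was 0.91 for the members and 0.96 for the 1206. At 48 h against the end of the night 4 of 27 members were up, with a median of 0.07, and 94.9% of the 1206 were up, with a median of 1.80. These groups were split on their 24 h and end of night values, and differences between them were not tested.

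Against the end of the night, whose arrays the rule used, the members can only be described. The fit called 13 of 27 members as up at 4 h (7.49% of all probe sets) and 0 as down (8.78%), from which nothing is read. Both 4 h arrays lay above all end of night arrays for 19 members (20.8% of all probe sets). At 48 h it called 4 members as up (20.5% of all probe sets) and 3 as down (20.3%), likewise a description. Both 48 h arrays lay above the end of night arrays for 6 members (29.9%) and below for 5 (27.1%). Without 48 h array B the counts at 48 h were 2 up and 3 down, and without 48 h array C 7 and 2.

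PORB, protochlorophyllide oxidoreductase B, catalyses the light-dependent step of chlorophyll synthesis. Its signal was 11.30 at -2 h, 10.90, 10.21 and 10.62 at 0 h, 10.14 at 2 h, 10.70 and 11.01 at 4 h, 11.52 at 6 h, 12.02 and 11.87 at 8 h, 10.70 and 10.48 at 24 h, and 9.18 and 9.43 at 48 h. The -2 h array was above the 3 end of night arrays and the 2 h array just below them, the 8 h arrays were the highest, and both 48 h arrays were the lowest of the 14. At 48 h PORB was lower than at 4 h, by a difference of -1.54 ± 0.22 (2.92-fold, limma adjusted p = 7.52e-04; errors after ± on differences are limma standard errors). Its difference from the end of the night was -1.27 ± 0.20 at 48 h. The slope of 0.015 ± 0.073 per hour did not pass (limma adjusted p = 0.918), and without the -2 h array it was 0.346 and passed (limma adjusted p = 0.0234).

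Most measured relatives of PORB in chlorophyll and tetrapyrrole synthesis were low late in the darkness. Of 11 measured genes of that pathway, picked by name after the members were known, 7, PORB among them, fell at 48 h against 4 h and 0 rose (13.0% of all probe sets in each direction). The fall of HEME2 among them (-1.53, limma adjusted p = 0.0218) was lost without 48 h array B (-0.938, 0.121) or 4 h array A (0.114) or B (0.0739) and from the arrays that the rule did not use alone (0.0651). At 8 h against the end of the night PORB differed by 1.37 and CHLI2, a magnesium chelatase subunit, by -1.17, GSA1 (glutamate-1-semialdehyde aminotransferase) by -1.20 and HEME1, a uroporphyrinogen decarboxylase, by -0.15. At 24 h PORB was at 0.01, inside the window that chose it, beside -2.21 for CHLI2, -1.78 for GSA1 and -1.38 for HEME1. Not all relatives were low then, and hemb2 (0.14) and HEMA3 (0.13) were near the end of night mean. The signals of hemb2 and HEMA3 lay below every array median, where a change is harder to see. At 48 h against 4 h CHLI2 fell by 2.54 ± 0.10 and HEME1 by 2.01 ± 0.15 (limma adjusted p = 9.37e-07 and 1.88e-05).

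GH3.3 encodes an enzyme that joins the auxin indole-3-acetic acid to amino acids, which lowers free auxin. Its signal was 5.92 at -2 h, 5.95, 6.02 and 5.57 at 0 h, 6.29 at 2 h, 8.13 and 7.71 at 4 h, 7.99 at 6 h, 6.93 and 6.94 at 8 h, 5.62 and 5.85 at 24 h, and 5.63 and 6.06 at 48 h. The 4 h and 6 h arrays were the highest and the 8 h arrays had come partway back; the 24 h and 48 h arrays overlapped the end of night arrays in range. Its 4 h difference from the end of the night was 2.07 ± 0.19 (4.20-fold). At 48 h it was lower than at 4 h by a difference of -2.07 ± 0.21 (limma adjusted p = 1.07e-04), and its difference from the end of the night was 0.00 ± 0.19. The slope to 6 h was 0.303 ± 0.063 per hour (limma adjusted p = 0.0193), and 0.426 with adjusted p = 0.117 without the -2 h array.

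Of 5 measured genes of the GH3 family, WES1, which also conjugates auxin, rose at 4 h and was up at 24 h. Its differences from the end of the night were 2.82 at 4 h, 3.58 at 8 h, 4.13 at 24 h and 4.39 at 48 h, and it rose by 1.57 ± 0.27 at 48 h against 4 h (limma adjusted p = 0.00251). GH3.1, GH3.9 and GH3.17 did not pass any of the 4 tests. The signals of GH3.1 and GH3.9 lay below every array median, where a change is harder to see. IAA29, an auxin-responsive repressor, had 1.82 at 4 h, 2.56 at 8 h and 2.86 at 24 h.

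PDF1.2 and PDF1.2b are plant defensins, small secreted antifungal peptides whose transcripts are widely used as markers of jasmonate and ethylene signalling. PDF1.2 had 7.75 at -2 h, 6.54, 8.21 and 6.29 at 0 h, 7.45 at 2 h, 8.42 and 8.81 at 4 h, 8.06 at 6 h, 9.16 and 8.38 at 8 h, 6.58 and 7.84 at 24 h, and 6.34 and 6.87 at 48 h. The end of night arrays spread widely (7.01 ± 1.05, SD, n = 3), with array B above the 6 h array, and the 24 h arrays spread by 0.89 (SD, n = 2). PDF1.2 was lower at 48 h than at 4 h by a difference of -2.01 ± 0.62 (limma adjusted p = 0.0413). That call was lost without 4 h array A (adjusted p = 0.109) or B (0.176), without 48 h array B (-1.74, 0.151) or C (0.0653), with eBayes trend and robust settings (0.0536) and with the letters as a replicate block (-2.12, 0.0539). The 4 h difference from the end of the night was 1.60 ± 0.57, and 2.20 with array B of the end of the night left out.

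PDF1.2b had 8.71 at -2 h, 8.23, 9.26 and 7.87 at 0 h, 8.85 at 2 h, 9.91 and 9.93 at 4 h, 9.57 at 6 h, 10.53 and 9.43 at 8 h, 7.93 and 9.36 at 24 h, and 8.32 and 8.73 at 48 h. End of night array B and 24 h array C were again the high ones of their groups. The 48 h against 4 h difference of -1.40 ± 0.55 did not pass (limma adjusted p = 0.0985), and from the arrays of those 2 time points alone it did (0.0109). The 4 h difference from the end of the night was 1.47 ± 0.50, and 1.87 with array B of the end of the night left out. The PDF1.2 genes have near-identical sequences and this probe set is of the type that can bind more than 1 transcript, so the 2 members may share signal and are not separate evidence.

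Of 10 measured plant defensin genes, PDF1.4 rose at 4 h and LCR68 and LCR69 fell. PDF1.4 had differences from the end of the night of 1.41 at 4 h, 2.13 at 8 h, 2.27 at 24 h and 3.81 at 48 h. Its rise at 4 h was lost without 4 h array A (0.67, limma adjusted p = 0.381) and when any 1 end of night array was left out (0.0644 to 0.128). It rose by 2.40 ± 0.45 at 48 h against 4 h (limma adjusted p = 0.00394), where PDF1.2 fell.

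AT5G64120, peroxidase 71 (PRX71), is a class III peroxidase, a family that acts in cell walls. Its signal was 6.75 at -2 h, 7.33, 6.92 and 6.75 at 0 h, 7.41 at 2 h, 8.84 and 8.01 at 4 h, 9.32 at 6 h, 9.30 and 7.76 at 8 h, 7.10 and 6.72 at 24 h, and 9.80 and 7.93 at 48 h. The 24 h arrays lay within the end of night range or just below it, and both 48 h arrays lay above it and far apart, with array B the highest of all 14. The slope of 0.319 ± 0.054 per hour passed (limma adjusted p = 0.0103), also without the -2 h array. Its 48 h difference from the end of the night was 1.86 ± 0.57, and 0.928 without 48 h array B. At 48 h against 4 h it differed by 0.44 ± 0.62 (limma adjusted p = 0.685). The other 5 measured class III peroxidases had 8 h differences of -0.16 to 0.17. Their signals lay below every array median, where a change is harder to see.

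CYP71B26 belongs to the CYP71B cytochromes P450, a group of monooxygenases. Its signal was 6.63 at -2 h, 6.66, 6.78 and 6.58 at 0 h, 6.70 at 2 h, 7.14 and 7.13 at 4 h, 7.84 at 6 h, 8.00 and 7.93 at 8 h, 6.58 and 6.77 at 24 h, and 6.72 and 6.72 at 48 h. The arrays at -2 h, 2 h, 24 h and 48 h lay within the end of night range, and the 6 h and 8 h arrays stood more than 1 log2 unit above it. Its 4 h difference from the end of the night was 0.47 ± 0.10. The slope was 0.137 ± 0.036 per hour (limma adjusted p = 0.0404), lost without 4 h array A (0.0785) or B (0.068). It was lower at 48 h than at 4 h by a difference of -0.42 ± 0.11 (limma adjusted p = 0.024), a call lost when any 1 of the 4 arrays was left out (differences of -0.42 to -0.41, adjusted p from 0.067 to 0.108), with a second quantile normalization (0.0519), with eBayes trend and robust settings (0.0727) and from the arrays of those 2 time points alone (0.0953).

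Among the other measured CYP71B genes (19 with CYP71B26), CYP71B23 rose at 4 h and CYP71B36 fell. CYP71B23 had differences from the end of the night of 2.17 at 4 h, 2.30 at 8 h, 2.38 at 24 h and 3.46 at 48 h, and its 4 h call was lost without 4 h array B (2.02, limma adjusted p = 0.0604). At 24 h CYP71B26 was at 0.00, inside the window that chose it, and several other genes of the family were also near 0. Most of those had signals below every array median, where a change is harder to see, and CYP71B34 (0.10 at 24 h) was an exception. The family's other genes are drawn in grey in the plot of relatives.

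**Figure D4:**
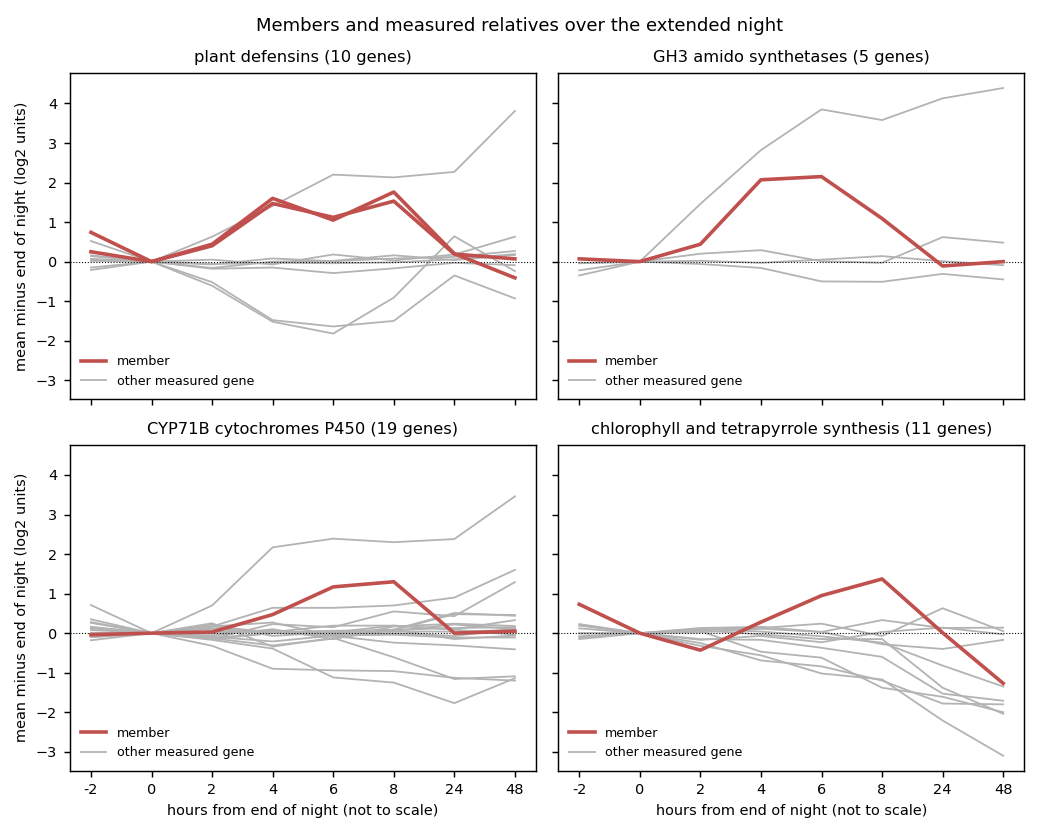
Mean signal minus the end of night mean (y axis, log2 units) at the 8 time points (x axis, hours, not to scale) for 4 families. Red lines are members (PDF1.2 and PDF1.2b, GH3.3, CYP71B26, PORB) and grey lines are the other measured genes of the family. The red lines are near 0 at 24 h because the rule required it. Many grey lines of the defensins and the CYP71B genes are near 0 there too. Most of these come from signals below every array median, where a change is harder to see. The grey lines above 2 at 24 h are WES1 (GH3), PDF1.4 (defensins) and CYP71B23.

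ATSBT5.2, a subtilase (a subtilisin-like serine protease), had 7.01 at -2 h, 6.42, 7.16 and 6.72 at 0 h, 6.93 at 2 h, 7.69 and 7.66 at 4 h, 7.65 at 6 h, 7.82 and 8.08 at 8 h, 7.05 and 6.82 at 24 h, and 6.98 and 6.55 at 48 h. The 4 h, 6 h and 8 h arrays were above all the others. Its 4 h difference from the end of the night was 0.91 ± 0.21. It was lower at 48 h than at 4 h by a difference of -0.91 ± 0.23 (limma adjusted p = 0.0184), lost without 4 h array A (0.0901) or B (0.0767) or 48 h array C (0.0996). Among the other measured subtilases (10 with ATSBT5.2), SBT1.3 (-0.74) and SBTI1.1 (-0.76) fell at 4 h (limma adjusted p = 0.0113 and 0.0443). Both calls were lost without 4 h array A (0.086 and 0.164) or B (0.0684 and 0.211), and that of SBTI1.1 also when array A or B of the end of the night was left out (0.118 each), with median centring (0.0505) and with a second quantile normalization (0.0529).

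The remaining 5 members with 1 gene carry no name beyond the locus in the annotation used here. AT1G52200 had 7.72 at -2 h, 7.74, 7.88 and 7.73 at 0 h, 8.09 at 2 h, 9.75 and 9.51 at 4 h, 9.72 at 6 h, 9.09 and 9.02 at 8 h, 7.84 and 7.88 at 24 h, and 8.86 and 9.09 at 48 h. Its 24 h arrays were within the end of night range and its 48 h arrays were again more than 0.9 above it. Its differences from the end of the night were 1.84 ± 0.12 at 4 h and 1.19 ± 0.12 at 48 h. It was lower at 48 h than at 4 h by a difference of -0.65 ± 0.13 (limma adjusted p = 0.00459), a call lost from the arrays of those 2 time points alone (0.0594).

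AT1G03740 had 7.53 at -2 h, 7.34, 7.17 and 6.69 at 0 h, 7.74 at 2 h, 8.49 and 8.49 at 4 h, 8.69 at 6 h, 8.60 and 8.25 at 8 h, 7.51 and 6.68 at 24 h, and 7.84 and 7.70 at 48 h. The 4 h to 8 h arrays were above all the others. Its differences from the end of the night were 1.42 ± 0.26 at 4 h and 0.70 ± 0.26 at 48 h, where both arrays lay above the end of night range. The 48 h against 4 h difference of -0.72 ± 0.28 did not pass (limma adjusted p = 0.0926), and from the arrays of those 2 time points alone it did (0.0274). The slope was 0.159 ± 0.029 per hour (limma adjusted p = 0.0126), lost without the -2 h array (0.238, 0.063).

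AT1G73750 had 7.13 at -2 h, 7.10, 7.27 and 7.53 at 0 h, 7.92 at 2 h, 7.94 and 8.36 at 4 h, 8.37 at 6 h, 8.35 and 8.64 at 8 h, 7.24 and 7.08 at 24 h, and 8.15 and 7.33 at 48 h. The arrays from 2 h to 8 h lay above the end of night range, and of the 48 h arrays only B did. Its differences from the end of the night were 0.85 ± 0.24 at 4 h and 0.44 ± 0.24 at 48 h. At 48 h against 4 h it differed by -0.41 ± 0.27 (limma adjusted p = 0.317).

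AT1G07280 had 8.69 at -2 h, 8.35, 8.42 and 8.89 at 0 h, 8.30 at 2 h, 8.88 and 9.15 at 4 h, 9.29 at 6 h, 9.60 and 9.71 at 8 h, 8.70 and 8.91 at 24 h, and 8.50 and 8.82 at 48 h. The 8 h arrays were the highest, and the 24 h and 48 h arrays lay within the end of night range or just above it. Its 4 h difference from the end of the night was 0.46 ± 0.18, and 0.60 with the replicate block. Its 48 h against 4 h difference was -0.36 ± 0.20 (limma adjusted p = 0.239), and -0.61 with the block (0.00418).

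AT4G26540 lay nearest the 8 h threshold, and it met the rule in 2 of the 7 runs with 1 array left out. It had 4.36 at -2 h, 5.25, 4.81 and 4.68 at 0 h, 5.12 at 2 h, 5.53 and 5.24 at 4 h, 5.62 at 6 h, 6.23 and 5.62 at 8 h, 4.81 and 5.57 at 24 h, and 4.56 and 4.69 at 48 h. The 24 h arrays lay far apart, with C close to the 6 h array. The 48 h against 4 h difference of -0.76 ± 0.29 did not pass (limma adjusted p = 0.0873). The slope did (0.160 ± 0.021 per hour, limma adjusted p = 0.00573), and it was lost without the -2 h array (0.125, adjusted p = 0.182). Its signals lay below every array median, where a change is harder to see.

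**Figure D5:**
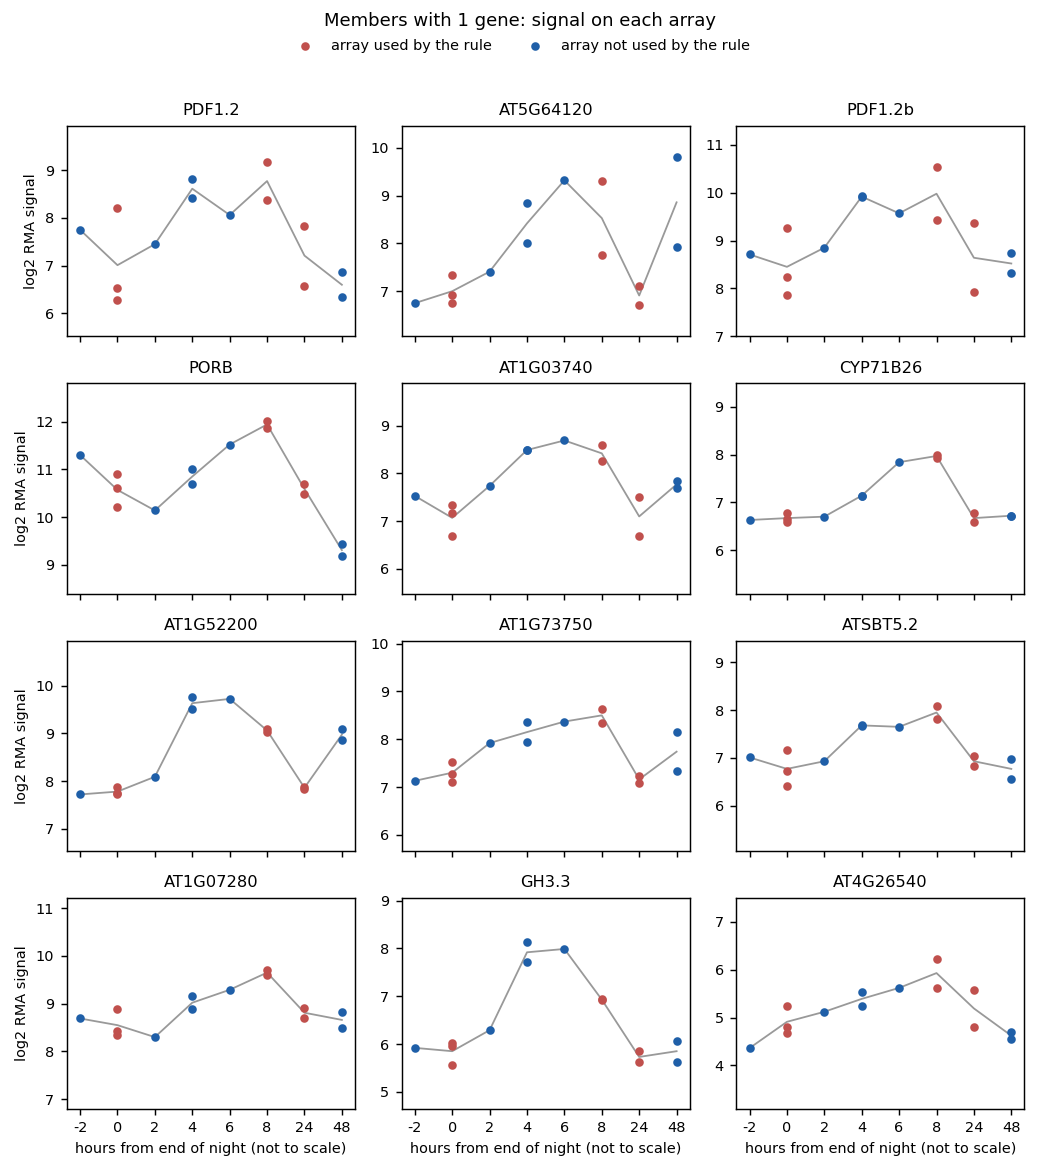
Log2 RMA signal (y axis, the same span in each panel) on each array of the 12 members with 1 gene, against hours from the end of the night (x axis, not to scale). Points are arrays, red where the rule used them and blue where it did not, and the grey line joins the time point means; GH3.3 is highest at 4 h and 6 h, PORB at 8 h, and AT5G64120 and AT1G52200 are up again at 48 h.

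The 15 members with no single gene included the largest changes, and the ones described here were picked after their values were seen. In 245448_at, which had the largest 8 h difference (2.38), the signal was 7.10 at -2 h, 5.67, 5.95 and 5.69 at 0 h, 7.22 at 2 h, 7.72 and 7.77 at 4 h, 7.79 at 6 h, 8.41 and 7.89 at 8 h, 5.61 and 5.65 at 24 h, and 5.35 and 5.40 at 48 h. The end of night, 24 h and 48 h arrays, all at the clock time of dawn, were the 7 lowest, and the -2 h array stood above all of them by more than 1. Its 4 h difference from the end of the night was 1.98 ± 0.16, and at 48 h it was lower than at 4 h by a difference of -2.37 ± 0.17 (limma adjusted p = 1.57e-05).

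In another 4 the -2 h array lay below all 3 end of night arrays and the 2 h array above them. The probe set 260914_at had 8.98 at -2 h, 9.87, 9.47 and 9.28 at 0 h, 11.73 at 2 h, 12.24 and 12.06 at 4 h, 11.72 at 6 h, 10.99 and 10.37 at 8 h, 9.64 and 9.36 at 24 h, and 7.48 and 7.93 at 48 h. Its signal was highest at 4 h and both 48 h arrays were the lowest of the 14, with a difference of -4.45 ± 0.26 from 4 h (21.8-fold lower at 48 h, limma adjusted p = 4.54e-06). Its 48 h difference from the end of the night was -1.84 ± 0.23. The probe set 248910_at had 5.62 at -2 h, 6.67, 7.82 and 7.59 at 0 h, 10.00 at 2 h, 9.88 and 9.18 at 4 h, 9.42 at 6 h, 9.17 and 8.76 at 8 h, 7.44 and 7.59 at 24 h, and 6.30 and 5.76 at 48 h. It was the 1 member highest at 2 h, and its difference at 48 h against 4 h was -3.50 ± 0.38 (limma adjusted p = 1.51e-04). Its 48 h difference from the end of the night was -1.33 ± 0.34. The other two were 247323_at and 247282_at. The signal of 247323_at was 6.14 at -2 h, 6.83, 7.81 and 7.46 at 0 h, 9.12 at 2 h, 9.47 and 8.99 at 4 h, and 7.86 and 7.51 at 48 h, with a difference of -1.54 ± 0.29 at 48 h against 4 h (limma adjusted p = 0.00397). That of 247282_at was 8.88 at -2 h, 9.17, 9.72 and 9.30 at 0 h, 10.39 at 2 h, 10.72 and 10.75 at 4 h, and 9.68 and 9.12 at 48 h, with a difference of -1.34 ± 0.22 at 48 h against 4 h (limma adjusted p = 0.00178).

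In 2 others the daytime rise came late or the 48 h level was high. The probe set 259426_at had 10.32, 10.42 and 9.92 at 0 h, 10.47 and 10.66 at 4 h, 11.28 and 11.97 at 8 h, 10.56 and 10.43 at 24 h, and 11.78 and 11.21 at 48 h. It was higher at 48 h than at 4 h by 0.93 ± 0.27 (limma adjusted p = 0.0284), the 1 such call among the members. That call was lost without 48 h array B (0.647, adjusted p = 0.153), without 4 h array A (0.149) or B (0.0784) and from the arrays of the 2 time points alone (0.0558). Its 48 h difference from the end of the night was 1.28 ± 0.24. The probe set 255070_at was the 1 member below its end of night mean at 4 h (-0.51 ± 0.32) and 1 of the 2, with PDF1.2, whose 6 h array lay within the end of night range.

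The other 8 had 8 h differences of 1.03 to 2.04. Of these, 260837_at had 11.41 and 11.35 at 4 h, against 9.57, 9.97 and 9.41 at 0 h, a difference of 1.73 ± 0.27. It was lower at 48 h than at 4 h (-1.54 ± 0.29, limma adjusted p = 0.00407), and its slope of 0.254 ± 0.032 per hour (limma adjusted p = 0.00515) and that of AT5G64120 were the 2 that passed under every alternative. The probe set 260546_at had 8.82 and 8.47 at 48 h, against 8.17, 7.93 and 7.56 at 0 h, with no overlap. Its 48 h difference from the end of the night was 0.76 ± 0.19, and 0.581 without 48 h array B. The probe set 266909_at met the rule by a narrow margin, with 8 h arrays of 7.67 and 6.02 over end of night arrays of 6.01, 5.85 and 5.23. The probe set with several genes, 245638_s_at, had 8.12, 8.19 and 7.99 at 0 h, 9.87 and 9.16 at 8 h, and 9.46 and 7.93 at 48 h, where the B array was the high one. Neither its slope (limma adjusted p = 0.665) nor its 48 h against 4 h difference (0.463) passed.

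Several genes of the lists changed at 4 h and are given for their values at the later times. GI, the clock gene GIGANTEA, had differences from the end of the night of 0.72 at 4 h, 3.64 at 8 h, 2.09 at 24 h and 3.40 at 48 h. The sugar starvation genes ATL8 and AKINBETA1 had 3.91 and 1.95 at 8 h beside 4.00 and 2.27 at 24 h. In the cold response list COR47 had 2.61 at 8 h and 2.19 at 24 h, and ZAT10, a zinc finger repressor, had 1.16 at 4 h, 0.45 at 8 h, 0.16 at 24 h and 1.82 at 48 h, so it too was within 0.3 of the end of night mean at 24 h. HYH, a light-signalling factor, had -4.58 at 8 h and -4.38 at 24 h, and PWD of starch breakdown had -0.68 at 8 h and 0.69 at 24 h. Of the 19 measured list genes 7 rose and 2 fell at 4 h from the end of the night (7.49% and 8.78% of all probe sets). With the replicate block, GID1C (0.49, limma adjusted p = 0.0271) and CDF5 (1.21, 0.0145) rose there too and DPE1 fell (-0.87, 9.71e-04). At 48 h against 4 h, 10 of these list genes rose and 1 fell (13.0% of all probe sets in each direction). Of the members 1 rose and 12 fell, and the difference between members and list genes was not tested. With the block RVE6 (0.48, limma adjusted p = 0.0198), TIC (0.74, 0.0243) and AKINBETA1 (0.42, 0.0379) rose too and IAA29 fell (-0.63, 0.033). The calls of GI and GID1B (0.56), a gibberellin receptor, at 4 h were lost without 4 h array A or B or end of night array C (limma adjusted p = 0.104, 0.234 and 0.0826 for GI, and 0.191, 0.0758 and 0.0746 for GID1B). That of ZAT10 was lost without 4 h array A (0.102) or B (0.124) or end of night array A (0.0609) or C (0.0557).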

How the data were processed

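Signal was measured on Affymetrix ATH1 arrays. The deposited values are log2 signal per probe set after RMA by the authors, per the submitters' processing notes; no software version is given in the sources used here. RMA makes array distributions alike, so a shift of all transcripts would not show. Of 22810 probe sets, 64 controls were left out and 22746 tested, with no filter on signal. The number of arrays limits the precision.

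Differences came from limma 3.58.1 in R 4.3.3 (lmFit, eBayes, two-sided) in 1 fit of 14 arrays with 8 time points as a factor (6 residual degrees of freedom, median posterior SD 0.165). The slope was fitted to 5 arrays (3 residual degrees of freedom). P-values were adjusted by Benjamini-Hochberg over all probe sets, and a call is an adjusted p under 0.05. Calls of members against the end of the night are counted as a description only, since the rule used those arrays. The procedure was tested on simulated data with independent noise on each array. That simulation did not cover the deviations shared by replicate letter that are described below. Counts were made with pandas 2.3.3 and numpy 2.4.6 (Python 3.11.15) and drawn with matplotlib 3.10.9.

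The members and lists were chosen with earlier results of these data known, and the 6 families by name after the members were known. Named genes are all 12 members with 1 gene, genes of the lists by their change at 4 h, and others said to be picked by value. A gene with several probe sets took the brightest. Names came from the array annotation and RefSeq TAIR10.1. Promoter letters were planned but no promoter table was used here.

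Arrays of different times that share a replicate letter deviated together from their group means (r of 0.17 to 0.58 in all 16 pairs). The 32 other pairs had r of -0.58 to 0.365, and with 2 arrays at a time the deviations are opposites. The main fit took no account of the letter, so its p-values ignore this shared deviation. A fit of the 11 lettered arrays with the letter as a replicate block was an alternative. Others were median centring, a second quantile normalization, dropping the 33.3% of probe sets with the lowest signal, trended and robust eBayes, fewer arrays, other thresholds and leaving out 1 array.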

Additional observations from a re-analysis of the deposited data

How the results depend on the processing

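The number of members depended on the thresholds. It was 67 with an 8 h difference of 0.8 or more, 15 with 1.2 or more, 52 with a 24 h window of -0.5 to 0.5, and 23 to 71 when 1 array was left out. Median centring gave 33 members, of which 22 were among the 27, and a second quantile normalization 32, of which 25 were. When 1 end of night array was left out, 12 to 14 members were called at 4 h against the end of the night. Over all probe sets 2786 to 2930 were called there, against 3700 from all 14 arrays. At 48 h against the end of the night 6 to 8 members were called, with 8308 to 8717 of all probe sets, against 9287. For the slope 9 members passed without 4 h array A and 10 without B, with 3323 and 4815 of all probe sets, against 5309. In the other comparisons, leaving out a 4 h or 48 h array left 1 array at that time, and those counts are not given. At an adjusted p under 0.01 the count of members at 48 h against the end of the night was 4 (6981 of all probe sets). Without the -2 h array that of the slope was 5 (1329 of all probe sets). Without the -2 h array the slope of 260914_at was -0.001 and that of CDF5, a photoperiod gene, -0.461. In both, the -2 h array was the lowest of the 5 arrays of the slope (8.98 and 7.39). The 6 h array (11.72 and 8.87) lay below both 4 h arrays, so neither followed a straight line. The cause of these courses was not tested. With the replicate block 3 members were up and 13 down at 48 h against 4 h, with 7569 probe sets called in all, against 5904 without it; 261212_at (-0.742), 260546_at (0.564) and 255070_at (1.244) passed there. Against the end of the night, as a description, it called 15 members up and 1 down at 4 h (5960 probe sets in all, against 3700) and 5 up and 3 down at 48 h (11229 against 9287). At 48 h against 4 h it changed no other member's call beyond these and those of PDF1.2 and AT1G07280. Of the member calls, 8 of 13 at 48 h against 4 h and 2 of 14 slopes held under every alternative. The fits from 7 and from 4 arrays for 48 h against 4 h are the same by construction, since single arrays add no spread.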
